A study of Mus musculus with 6 samples.

Results

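The genes described here carry glucose into the cell and through glycolysis to lactate, admit pyruvate to the mitochondrion or run the pentose phosphate pathway, with the hypoxia factor Hif1a beside them. They were taken as a fixed list of 38 genes, and each was read from its brightest probe set linked to that gene alone. Of the 38, 33 were measured this way, among 19938 genes in all. The 5 others, Gpi1, Pfkfb1, Gapdh, Eno1 and G6pdx, had no such probe set and were not analysed here by this rule.

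Expression was measured on 6 Affymetrix arrays of mouse RNA, 2 for each of 3 populations that follow one another in the making of T cells. HSC were bone marrow cells transduced with the fusion protein NUP98-HOXB4, which keeps blood progenitors dividing in culture, and expanded in vitro with IL6 and SCF. ProT were such cells grown with DLL4, a ligand of Notch1, and IL7, which direct them to the T lineage. DP were the double positive T cells that arose after ProT cells had been injected into Rag2-/- mice, a host that makes no mature T or B cells of its own but keeps its thymic stroma, myeloid cells and red cell precursors. The ProT and DP cells descend from the transduced cells, so no population without the fusion protein was compared. HSC and ProT came from culture and DP from an animal, so the stage of the cells and the place where they grew cannot be told apart. The labels do not say whether the 2 arrays of a population came from separate cultures or animals, so the p-values measure no more than the spread of these samples, which could be technical, and 2 arrays a population limit the precision.

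Signals are log2 values as deposited, scaled between arrays, and 1 unit is a 2-fold difference. They are shares of each array's RNA, not amounts per cell, and in such bulk samples fewer cells of a type and less RNA per cell cannot be told apart. The array medians lay between 6.73 and 6.91, and the median of all gene values was 7.17; signals below it were not shown to lie above background, so a fold against such a signal is given as "at least". A gene was called when its p from limma, adjusted by Benjamini-Hochberg over all 19938 genes, was below 0.05; "rose" and "fell" are used only for called changes, and an error after a change is its standard error. The ProT and DP markers followed the labels: 9 of 9 ProT markers were higher in ProT than in HSC, and 7 of 7 measured DP markers were higher in DP than in ProT, with Cd4 at 12.87 and 12.84 in DP against 6.06 and 5.94 in ProT. The HSC markers set HSC apart from DP, with 8 of 8 lower in DP, but not clearly from ProT: 2 of 8 were lower in ProT than in HSC, 5 were not called, Cd34 and Flt3 among them, and Kit was higher by 0.72 (adjusted p = 0.00624). Transcripts typical of other cells were present too. The HSC arrays carried granulocyte and monocyte transcripts, with the precursor enzyme Mpo at 13.13 on both. The ProT arrays carried mast cell and killer cell transcripts, with 6 of 8 measured genes of each list higher than in HSC, among them the mast cell protease Mcpt1 at 12.55 and 12.48. The mast cell gene Hdc fell by 3.03 ± 0.19 in that comparison (adjusted p = 0.000293), and the rest of both lists was not called. Whether other cells or the labelled cells made these transcripts was not tested.

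Glycolysis splits glucose into pyruvate in the cytosol, with hexokinase and phosphofructokinase as its gated steps. Lactate dehydrogenase turns pyruvate into lactate, which leaves the cell through monocarboxylate transporters, while pyruvate dehydrogenase sends pyruvate into the mitochondrion unless its kinases switch it off. The pentose phosphate pathway draws glucose 6-phosphate aside to make ribose for nucleotides and NADPH for reductive synthesis. Dividing early thymocytes are known for high glucose uptake and aerobic glycolysis, and most DP thymocytes are small resting cells.

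The main change in these genes lay between ProT and DP. In DP against ProT, 19 of the 33 measured genes fell (57.6%), 4 rose (12.1%) and 10 were not called. Over all genes 18.1% fell and 14.5% rose in that comparison. Among the 10774 genes kept by a filter on dim genes, 31.7% fell and 21.6% rose. Of the 30 members kept by it, 19 fell and 4 rose. Without the filter, 14 of the 33 measured genes fell at least 2-fold, where 7.12% of all genes did so. The median change of the 33 genes was -0.82, against 0.02 over all genes. With each array centred on its own median, the split over all genes turned, with 14.9% lower and 23.5% higher in DP than in ProT and a median of all genes of 0.14. Of the members, 18 fell and 4 rose under that centring, with a median of -0.70.

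In ProT against HSC, by contrast, 4 members rose (12.1%), 2 fell (6.06%) and 27 were not called, beside 7.85% higher and 6.9% lower over all genes. These shares rest on 6 genes and lie near the background. In DP against HSC, 19 members fell and 4 rose, where 18.8% of all genes fell and 16% rose. With the filter on dim genes 33.2% of all genes fell in DP against HSC, beside 20 of 30 members. Without that filter, 15 members fell at least 2-fold in DP against HSC, against 8.66% of all genes. DP against ProT and DP against HSC share the DP arrays, so the second count is no separate support for the first. The medians of the members were 0.00 in ProT against HSC and -0.83 in DP against HSC. The commonest course, held by 15 genes, was no call between ProT and HSC followed by a lower level in DP than in either.

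**Figure D1:**
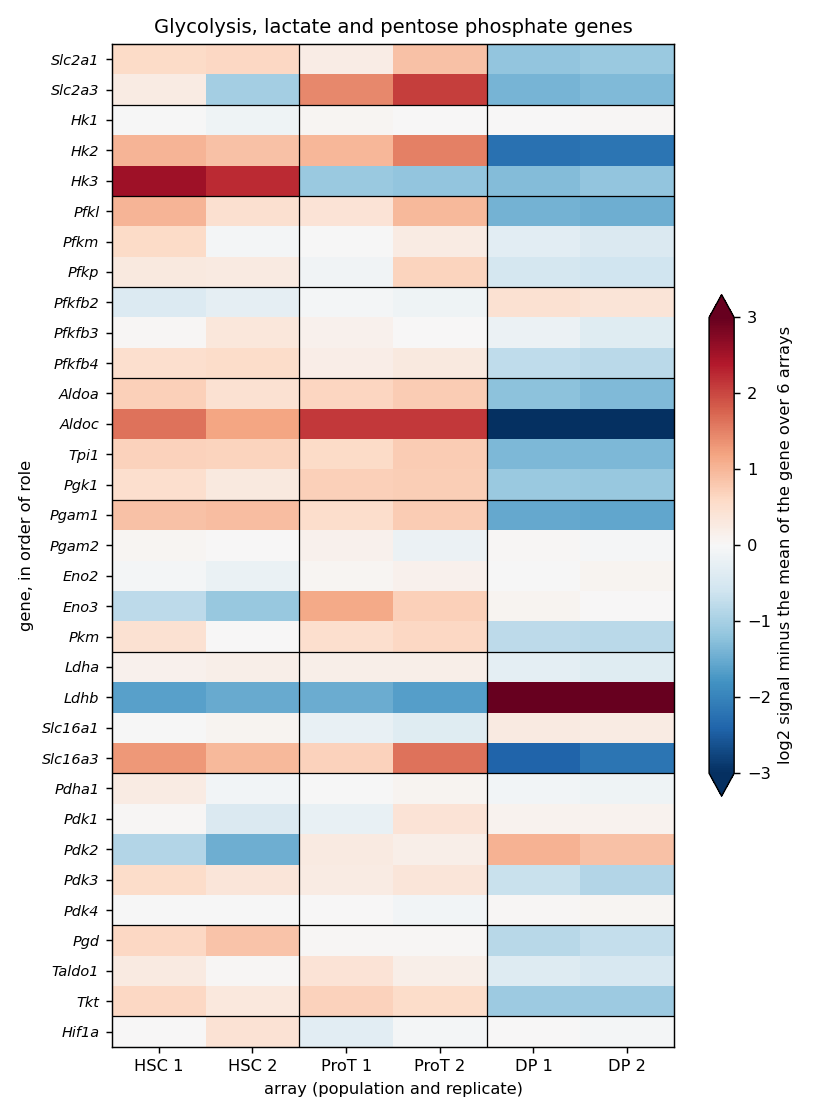
Log2 signal of each measured gene on each of the 6 arrays, drawn as the difference from that gene's mean over the arrays, with genes running down by role and arrays across in stage order (HSC, ProT, DP). The colour scale runs from -3 to 3 in log2 units, with larger differences at its ends. Most genes from glucose uptake to pyruvate kinase are at their lowest on both DP arrays, while Ldhb is high on the DP arrays only.

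Promoters are shown for the 4 largest falls in DP against ProT among genes with 1 listed start, and for Ldhb, which moved the other way. Each is the RefSeq sequence of mouse build GRCm38.p6, written 5′ to 3′ along the gene, from 250 bases before to 50 after the annotated start. Capitals mark the core of the hypoxia response element, ACGTG or GCGTG, on either strand (CACGT or CACGC when it lies on the other).
Hk2 (chr6:82774405-82774704, minus strand): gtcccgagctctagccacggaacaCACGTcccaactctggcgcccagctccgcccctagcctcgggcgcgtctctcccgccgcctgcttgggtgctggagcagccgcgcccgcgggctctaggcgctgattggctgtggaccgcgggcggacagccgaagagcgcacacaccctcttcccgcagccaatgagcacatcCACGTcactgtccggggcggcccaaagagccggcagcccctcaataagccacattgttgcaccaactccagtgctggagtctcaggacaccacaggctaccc
Slc16a3 (chr11:120948817-120949116, plus strand): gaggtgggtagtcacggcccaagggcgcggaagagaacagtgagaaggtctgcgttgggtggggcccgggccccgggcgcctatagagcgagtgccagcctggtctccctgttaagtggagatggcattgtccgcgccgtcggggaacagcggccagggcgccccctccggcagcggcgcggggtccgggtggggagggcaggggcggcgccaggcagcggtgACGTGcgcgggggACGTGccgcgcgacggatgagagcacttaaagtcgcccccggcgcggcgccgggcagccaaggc
Pgam1 (chr19:41911621-41911920, plus strand): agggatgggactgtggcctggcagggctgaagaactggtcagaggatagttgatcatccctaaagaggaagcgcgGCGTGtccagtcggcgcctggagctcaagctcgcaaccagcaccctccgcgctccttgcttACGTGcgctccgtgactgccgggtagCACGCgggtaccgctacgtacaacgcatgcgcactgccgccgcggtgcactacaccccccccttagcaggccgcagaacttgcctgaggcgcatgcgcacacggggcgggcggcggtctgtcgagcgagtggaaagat
Pfkl (chr10:78009758-78010057, minus strand): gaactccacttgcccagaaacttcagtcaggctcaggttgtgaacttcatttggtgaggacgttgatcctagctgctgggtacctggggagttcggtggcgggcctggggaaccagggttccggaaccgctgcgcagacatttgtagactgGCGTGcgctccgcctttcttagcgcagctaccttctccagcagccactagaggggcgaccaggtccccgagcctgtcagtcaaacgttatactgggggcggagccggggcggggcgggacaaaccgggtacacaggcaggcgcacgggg
Ldhb (chr6:142507908-142508207, minus strand): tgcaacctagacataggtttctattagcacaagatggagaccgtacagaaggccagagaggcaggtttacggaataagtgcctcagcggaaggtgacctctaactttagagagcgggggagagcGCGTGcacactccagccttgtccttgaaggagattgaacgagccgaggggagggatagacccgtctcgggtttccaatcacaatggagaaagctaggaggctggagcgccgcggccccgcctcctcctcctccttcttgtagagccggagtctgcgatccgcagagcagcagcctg
Hk2 and Slc16a3 each held the core 2 times, Pgam1 3 times, and Pfkl and Ldhb 1 time. Over the windows of the measured members it was present in 37 of 47 (78.7%), at 29 of the 32 genes with a listed window. Over all RefSeq windows of the same length it was present in 14380 of 32851 (43.8%). Among the members themselves it did not mark those that fell: it was found in 20 of 24 windows of genes lower in DP than in ProT (83.3%) and in 17 of 23 windows of the other members (73.9%). The E-box CACGTG, which contains ACGTG on both strands, was in 7 of the 47 windows (14.9%) against 7.15% of all windows. It was in 1 of the 24 windows of genes that fell and in 6 of the 23 others, and in none of the 5 printed. The windows were not matched for base composition, and a match of letters is a description, not a site.

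Both measured glucose transporters fell in DP. Slc2a1 (GLUT1), the widespread basal glucose transporter, had signals of 12.18 and 12.23 in HSC, 11.83 and 12.50 in ProT and 10.43 and 10.51 in DP. Both DP arrays lay below the other 4, and the ProT arrays lay on either side of the HSC pair. Its change was -1.69 ± 0.21 in DP against ProT (adjusted p = 0.00202), a 3.23-fold lower signal, and -0.04 in ProT against HSC with a 95% interval of -0.56 to 0.48. Slc2a3 (GLUT3), a transporter of high affinity, had 10.46 and 9.18 in HSC, 11.64 and 12.27 in ProT and 8.80 and 8.87 in DP. The ProT arrays were highest and the populations did not overlap, but the HSC arrays stood 1.27 apart. Slc2a3 rose by 2.14 ± 0.42 in ProT against HSC (adjusted p = 0.0235), a 4.4-fold change. That call was lost without ProT replicate 2 (adjusted p = 0.0874), without either DP array (0.0858) and in a fit of those populations alone (0.0858). The change itself was 2.77 without HSC replicate 1 and 1.5 without HSC replicate 2. In DP against ProT it fell by 3.13 ± 0.42 (adjusted p = 0.00277), 8.73-fold. DP against HSC gave -0.99 with an interval of -2.03 to 0.05, and was called only without HSC replicate 2 (-1.63, adjusted p = 0.00673).

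Hexokinases trap glucose in the cell as glucose 6-phosphate, and the 3 measured forms took different courses. Hk2, the inducible form bound to mitochondria, had signals of 10.20 and 10.07 in HSC, 10.18 and 10.68 in ProT and 6.95 and 7.0 in DP. It was bright on all 4 cultured arrays and near the middle of all gene values in DP. Hk2 fell by 3.46 ± 0.17 in DP against ProT (adjusted p = 6.97e-05), at least 11.0-fold. In ProT against HSC it differed by 0.30 ± 0.17, not called except without ProT replicate 1 (0.55, adjusted p = 0.041).

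Hk3, a form typical of myeloid cells, had 10.12 and 9.82 in HSC, 6.46 and 6.4 in ProT and 6.28 and 6.4 in DP. It was thus bright on the HSC arrays alone and dim on the 4 others. Hk3 fell by 3.54 ± 0.12 in ProT against HSC (adjusted p = 2.62e-05), at least 11.7-fold. The granulocyte and monocyte list moved with it: 12 of its 12 measured genes fell, and their summed signal had a log2 of 12.72 and 12.08 in ProT against 15.75 and 15.98 in HSC. The part of those cells in the fall of Hk3 was not tested.

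Hk1, the constitutive form, was read from a probe set that gave 13.02 and 12.90 in HSC, 13.09 and 13.05 in ProT and 13.04 and 13.06 in DP, with no call in any comparison. That probe set was linked to Hk1 by 1 accession. Another 16 probe sets list Hk1 together with Rpl17, a ribosomal protein gene, and moved as little, by -0.22 to -0.04 in DP against ProT. The other probe set of Hk1 alone, linked by 8 accessions, gave 11.10 and 11.13 in HSC, 10.87 and 11.02 in ProT and 10.39 and 10.37 in DP. Read there, Hk1 was lower in DP than in ProT by 0.56 ± 0.08 (adjusted p over probe sets = 0.0039). The flat course of Hk1 therefore held for the brighter probe set and not for the other.

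The phosphofructokinases commit the sugar to glycolysis. Pfkl, the liver-type subunit, had signals of 11.38 and 10.85 in HSC, 10.79 and 11.35 in ProT and 8.94 and 8.90 in DP. Its HSC and ProT arrays were interleaved, and both DP arrays lay well below them. Pfkl fell by 2.15 ± 0.24 in DP against ProT (adjusted p = 0.0013), 4.43-fold. Pfkp, the platelet-type subunit, had 11.19 and 11.18 in HSC, 10.79 and 11.58 in ProT and 10.38 and 10.32 in DP. The ProT arrays stood wide apart, one below the HSC pair and one above it, and the DP arrays were lowest. Pfkp fell by 0.84 ± 0.24 in DP against ProT (adjusted p = 0.0449), a change of -0.44 without ProT replicate 2. The call for Pfkp was lost without either HSC array or either DP array, with changes of -0.87 to -0.80. It was also lost in a fit of those populations alone (adjusted p = 0.0563), with median centring (0.0583) and with cyclic loess, another normalization (0.0702). In DP against HSC Pfkp fell by 0.83 ± 0.24 (adjusted p = 0.0428). That call was lost without either HSC array or either DP array (-0.87 to -0.80) and with cyclic loess (adjusted p = 0.0665). Pfkm, the muscle-type subunit, differed by -0.49 in DP against ProT (interval -1.0 to 0.03) and was not called with all arrays, but was called without either HSC array and in a fit of those populations alone (adjusted p = 0.0182 each). In DP against HSC it was called without HSC replicate 2 (-0.93, adjusted p = 0.00416).

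The bifunctional Pfkfb enzymes set the level of fructose 2,6-bisphosphate, the chief activator of phosphofructokinase, and did not move together. Pfkfb4 had signals of 8.92 and 8.97 in HSC, 8.61 and 8.70 in ProT and 7.64 and 7.61 in DP. The 3 pairs descended without overlap, and Pfkfb4 fell by 1.03 ± 0.08 in DP against ProT (adjusted p = 0.000292). Pfkfb2 rose over the same step by 0.52 ± 0.09 (adjusted p = 0.00634), a call lost without DP replicate 1 (0.0578). Pfkfb3, the form with the strongest kinase activity, had 9.45 and 9.75 in HSC, 9.53 and 9.42 in ProT and 9.23 and 9.05 in DP. The DP arrays were the lowest, by little. Its change in DP against ProT was -0.34 ± 0.13 (adjusted p = 0.105), called without either HSC array (0.0438). In DP against HSC it fell by 0.46 ± 0.13 (adjusted p = 0.0383). That call was lost on leaving out any array except HSC replicate 1, with values of -0.55 to -0.30. It was also lost with median centring (adjusted p = 0.067).

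Aldolases split the 6-carbon sugar, and the steps after them handle its 3-carbon products; all 4 measured genes of these steps fell in DP. Aldoc, the aldolase best known from brain, had 11.93 and 11.49 in HSC, 12.43 and 12.43 in ProT and 6.82 and 6.73 in DP. It was bright in culture and below the median of all gene values in DP. Aldoc fell by 5.65 ± 0.15 in DP against ProT (adjusted p = 1.09e-05), at least 50.3-fold, the largest change among the members. Before that it had risen by 0.72 ± 0.15 in ProT against HSC (adjusted p = 0.0285). The rise kept its size but lost its call without either ProT array (0.113 and 0.0887) or either DP array (0.091).

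Aldoa, the main aldolase of most tissues, had 13.35 and 13.10 in HSC, 13.28 and 13.39 in ProT and 11.41 and 11.31 in DP, and fell by 1.98 ± 0.11 in DP against ProT (adjusted p = 0.000103), 3.94-fold. Tpi1, triose phosphate isomerase, had 13.08 and 13.06 in HSC, 12.98 and 13.16 in ProT and 11.04 and 11.05 in DP, a fall of 2.02 ± 0.09 in DP against ProT (adjusted p = 4.47e-05). Pgk1, which makes the first ATP of the pathway, had 12.88 and 12.68 in HSC, 13.08 and 13.12 in ProT and 11.27 and 11.23 in DP, a fall of 1.85 ± 0.09 in that comparison (adjusted p = 7.29e-05). In these 3 genes both DP arrays lay below every cultured array and the replicates of DP were close. Pgk1 was also higher in ProT than in HSC by 0.32 ± 0.09, called only without HSC replicate 1 (0.42, adjusted p = 0.0275). Gapdh, the step between Tpi1 and Pgk1, is seen only on 25 probe sets shared with other genes; these lay between 13.48 and 14.05, close to the highest value in the table (14.38), and differed by -0.16 to -0.07 in DP against ProT. They cannot be read as Gapdh alone.

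In lower glycolysis 3 of the 5 measured genes fell in DP against ProT: Pgam1, Pkm and Eno3. Pgam1, the widespread phosphoglycerate mutase, had 12.70 and 12.75 in HSC, 12.37 and 12.60 in ProT and 10.29 and 10.28 in DP. It fell by 2.20 ± 0.10 in DP against ProT (adjusted p = 5.09e-05), 4.59-fold, with no overlap between DP and the other arrays. Pkm, pyruvate kinase, had 12.33 and 11.87 in HSC, 12.38 and 12.50 in ProT and 11.08 and 11.05 in DP, and fell by 1.37 ± 0.15 in DP against ProT (adjusted p = 0.00136). The signal does not separate the splice forms of Pkm. Pkm was called higher in ProT than in HSC only without HSC replicate 1 (0.56, adjusted p = 0.0145; 0.34 ± 0.15 with all arrays).

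Eno3, the muscle-type enolase, had 8.12 and 7.77 in HSC, 10.04 and 9.62 in ProT and 9.0 and 8.92 in DP. ProT was highest, DP lay between, and no arrays of different populations overlapped. Eno3 rose by 1.88 ± 0.18 in ProT against HSC (adjusted p = 0.00149), 3.69-fold. In DP it fell by 0.87 ± 0.18 against ProT (adjusted p = 0.0129) and stood 1.01 ± 0.18 above HSC (adjusted p = 0.00641). Both DP calls were lost without either DP array (adjusted p = 0.0781 and 0.10 against ProT, 0.0598 and 0.0515 against HSC). Eno2, the neuronal enolase, and Pgam2, the muscle mutase, had mean signals below 7.17 in every population and were not called.

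The lactate genes showed the most opposed courses. Ldha, the subunit that favours making lactate, had 13.56 and 13.59 in HSC, 13.59 and 13.61 in ProT and 13.13 and 13.07 in DP. It was among the brightest signals in all 3 populations, near the top of the scale. Ldha fell by 0.50 ± 0.07 in DP against ProT (adjusted p = 0.00312). Ldhb, the subunit that favours turning lactate back to pyruvate, had 5.82 and 5.94 in HSC, 5.96 and 5.81 in ProT and 10.61 and 10.60 in DP. It was dim on all 4 cultured arrays and bright on both DP arrays. Ldhb rose by 4.72 ± 0.09 in DP against ProT (adjusted p = 4.65e-06), at least 26.3-fold, the largest rise among the members. A second Ldhb probe set gave 10.51 and 10.39 in DP against 5.85 and 5.83 in ProT, a change of 4.61 ± 0.08. In ProT against HSC Ldhb differed by 0.00 with an interval of -0.21 to 0.22.

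The monocarboxylate transporters parted too. Slc16a3 (MCT4), the exporter of strongly glycolytic cells, had 11.14 and 10.80 in HSC, 10.52 and 11.46 in ProT and 7.42 and 7.63 in DP. The ProT arrays stood on either side of the HSC pair, and DP lay far below both. Slc16a3 fell by 3.46 ± 0.31 in DP against ProT (adjusted p = 0.000589), 11.0-fold. Slc16a1 (MCT1), which carries lactate either way, had 11.13 and 11.21 in HSC, 10.92 and 10.78 in ProT and 11.40 and 11.38 in DP. ProT was lowest and DP highest, and Slc16a1 rose by 0.54 ± 0.08 in DP against ProT (adjusted p = 0.00462). From ProT to DP the log2 difference of Slc16a3 over Slc16a1 thus moved by -4.00, as a description of paired changes that was not tested. The signal of one gene is not compared with that of another.

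**Figure D2:**
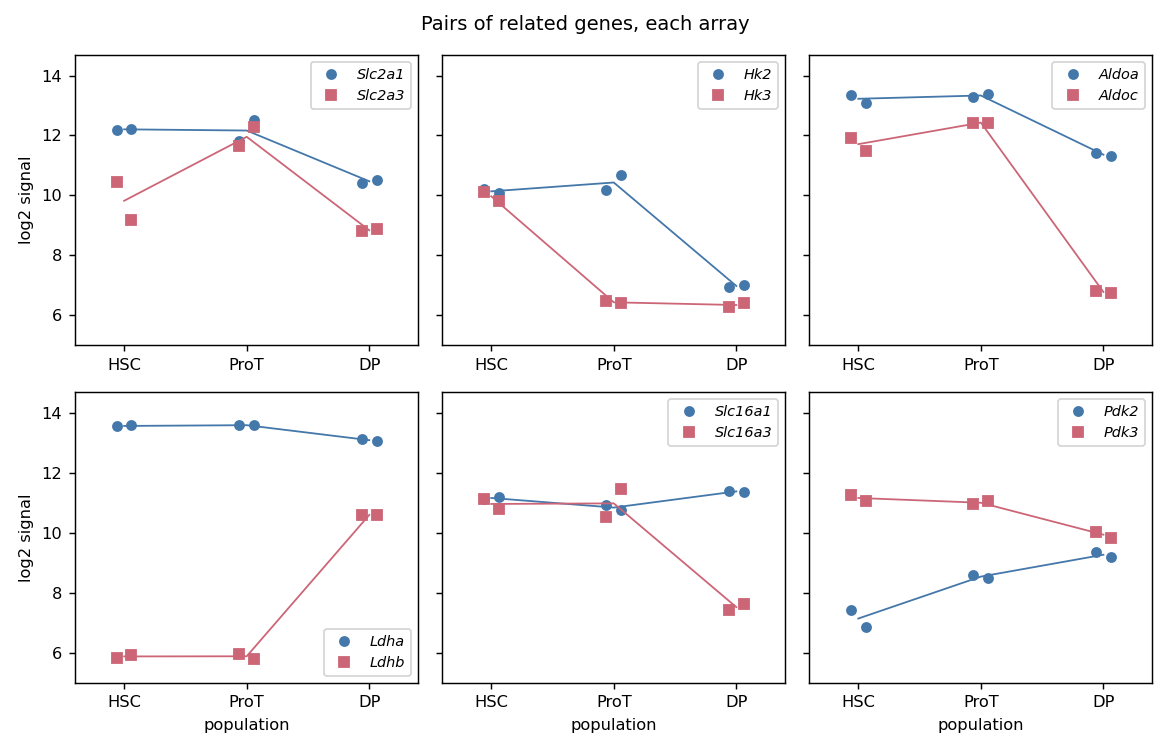
Log2 signal on each array for 6 pairs of related genes, by stage (HSC, ProT, DP); each point is 1 array and lines join the population means. Within a pair the change over stages can be compared, not the height, since probe sets differ in brightness: Ldhb climbs in DP where Ldha dips, Hk3 drops between HSC and ProT and Hk2 between ProT and DP, and Aldoc and Slc16a3 drop in DP where Aldoa drops less and Slc16a1 rises.

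At the entry to the mitochondrion, the catalytic subunit gene Pdha1 was not called in any comparison with all arrays, with signals from 10.78 to 11.15. It was called in DP against HSC only without HSC replicate 2 (-0.35, adjusted p = 0.0376). The kinases that inactivate it diverged. Pdk1, the form induced by hypoxia in many cells, had 10.55 and 10.08 in HSC, 10.29 and 10.94 in ProT and 10.64 and 10.64 in DP. The ProT arrays lay on either side of both DP arrays, and HSC replicate 2 was lowest. The difference in DP against ProT was 0.02 with an interval of -0.58 to 0.63. Pdk2 had 7.44 and 6.85 in HSC, 8.59 and 8.50 in ProT and 9.36 and 9.19 in DP, climbing with no overlap.

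Pdk2 rose by 1.40 ± 0.20 in ProT against HSC (adjusted p = 0.00652), at least 2.64-fold. It rose by a further 0.72 ± 0.20 in DP against ProT (adjusted p = 0.0359). That call was lost on leaving out any ProT or DP array, with changes of 0.64 to 0.81, and with cyclic loess (adjusted p = 0.0508). Pdk3 had 11.27 and 11.07 in HSC, 10.96 and 11.06 in ProT and 10.05 and 9.84 in DP. DP was lowest without overlap, and Pdk3 fell by 1.06 ± 0.11 against ProT (adjusted p = 0.00109). Pdk4, the kinase linked to fasting, was dim throughout and not called.

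All 3 measured pentose phosphate enzymes fell in DP. Pgd, which makes NADPH in the oxidative branch, had 12.19 and 12.41 in HSC, 11.61 and 11.60 in ProT and 10.74 and 10.84 in DP. It was the only member to fall at both steps, by 0.69 ± 0.10 in ProT against HSC (adjusted p = 0.00718) and by 0.82 ± 0.10 in DP against ProT (adjusted p = 0.00182). Tkt, transketolase of the branch that returns carbon to glycolysis, had 10.97 and 10.65 in HSC, 11.04 and 10.89 in ProT and 9.25 and 9.25 in DP. Its HSC and ProT arrays overlapped, and in DP it fell by 1.72 ± 0.12 (adjusted p = 0.000274), 3.29-fold. Taldo1, transaldolase of the same branch, fell by 0.72 ± 0.12 in DP against ProT (adjusted p = 0.00662), a call lost without DP replicate 2 (0.0654). Its fall of 0.59 ± 0.12 in DP against HSC was lost without either DP array (0.0658 and 0.0998).

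Hif1a, the oxygen-regulated factor that switches on many of these genes when its protein is stable, did not follow them as RNA. It had 11.52 and 11.94 in HSC, 11.19 and 11.45 in ProT and 11.52 and 11.46 in DP. HSC replicate 2 was highest and ProT replicate 1 lowest, and the other 4 arrays lay within a narrow range. Its change in DP against ProT was 0.17 with an interval of -0.23 to 0.56. In ProT against HSC it was -0.41 ± 0.16 (adjusted p = 0.176), called only without HSC replicate 1 (-0.62, adjusted p = 0.0314). RNA does not report the level of HIF protein.

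**Figure D3:**
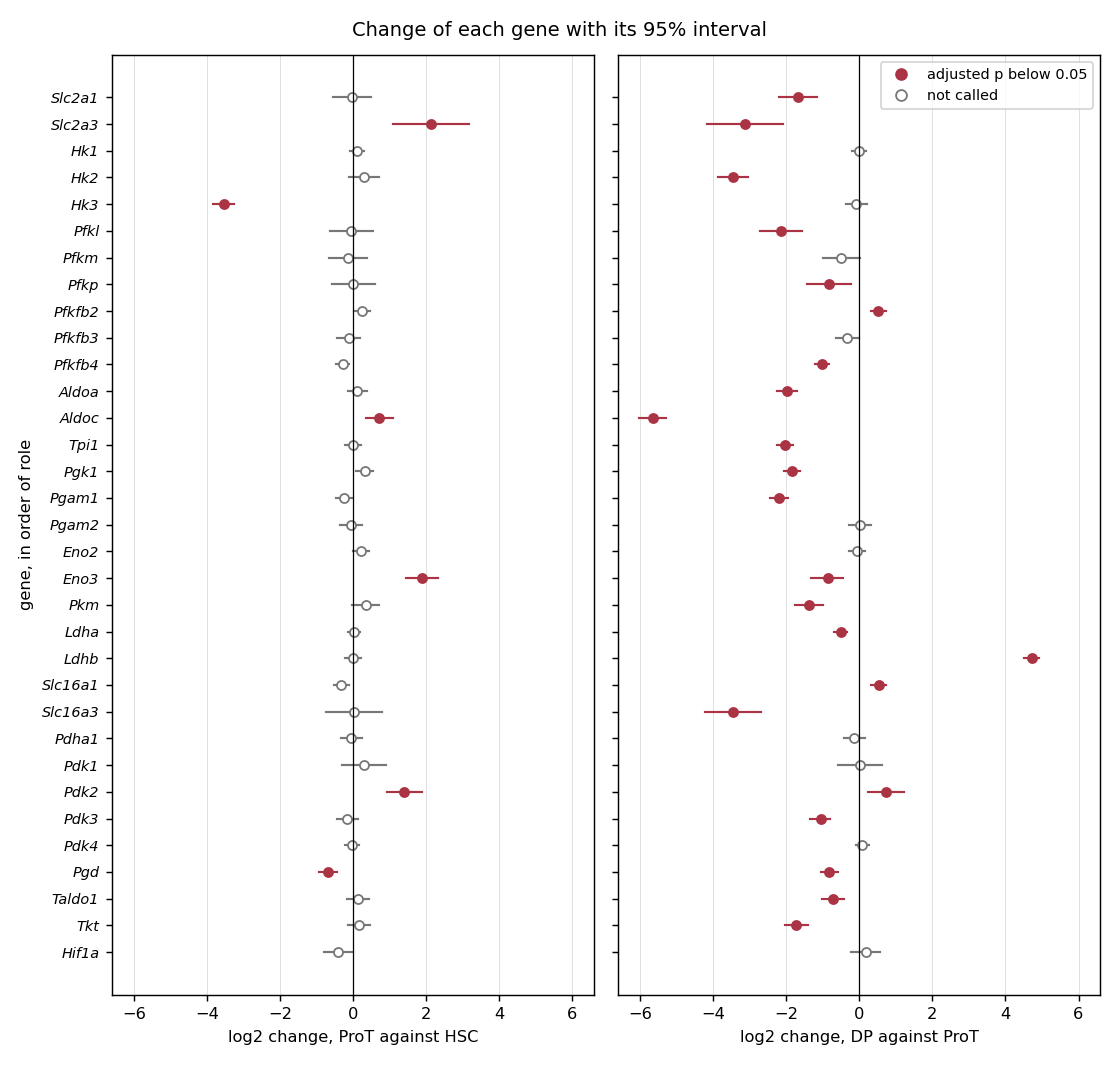
Log2 change of each measured gene with its 95% interval, in ProT against HSC (left) and DP against ProT (right), genes running down by role; filled points are called at adjusted p below 0.05 and open points are not. In DP against ProT 19 genes lie below 0 and called, from Aldoc at -5.65, and 4 lie above 0, led by Ldhb at 4.72.

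Genes next to these in the same pathways were counted as well, against the 18.1% of all genes that fell and the 14.5% that rose in DP against ProT. Among genes kept by the filter on dim genes those shares were 31.7% and 21.6%. The neighbouring lists were not filtered. Of 20 other measured genes of glycolysis and fructose use, 7 fell (35%) and 1 rose (5%) in that comparison. Slc2a6, of the glucose transporter family, fell by 3.36 ± 0.30 (adjusted p = 0.000578). Pgm1, a phosphoglucomutase that links glycogen to glycolysis, fell by 3.03 ± 0.18, and its relative Pgm2 by 1.08 ± 0.09. Bpgm, which makes the 2,3-bisphosphoglycerate of red cells, rose by 0.99 ± 0.10 (adjusted p = 0.00102), with 8.40 and 8.31 in DP against 7.32 and 7.41 in ProT. The red cell enzyme Alas2 was also higher in DP, at 8.53 and 8.44 against 5.73 and 5.86 in ProT. Alas2 was the only 1 of the 4 measured erythroid genes called; Slc4a1, Epor and Klf1 differed by 0.18, 0.12 and -0.21 in DP against ProT. The summed signal of the 4, which Alas2 leads, had a log2 of 9.36 and 9.38 in DP against 8.46 and 8.41 in ProT. The part of such cells in the rise of Bpgm was not tested.

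Among 5 measured genes of lactate and pyruvate transport and oxidation, 2 fell (40%) and 1 rose (20%) in DP against ProT. Slc16a7 (MCT2) fell by 2.58 ± 0.26 (adjusted p = 0.000921), at least 5.98-fold, and Bsg, the chaperone that brings MCT1 and MCT4 to the membrane, by 0.44 ± 0.07. Ldhd, which oxidises D-lactate, rose by 0.78 ± 0.09, at least 1.72-fold, while Mpc1, a subunit of the mitochondrial pyruvate carrier, differed by -0.09 ± 0.08. Of 8 other genes of the pyruvate dehydrogenase complex and its phosphatases, 3 fell (37.5%) and 2 rose (25%). The phosphatase Pdp2 fell by 1.19 ± 0.10, Dlat, the E2 subunit, fell by 0.43 ± 0.09 and the phosphatase regulator Pdpr rose by 0.51 ± 0.08.

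Of 11 other pentose phosphate and ribose genes, 2 fell and 2 rose in DP against ProT (18.2% each), near the shares over all genes. Rpia, which makes ribose 5-phosphate, fell by 0.85 ± 0.16. Prps2, which activates ribose 5-phosphate for nucleotide synthesis, rose by 1.03 ± 0.08 (adjusted p = 0.000339), with 12.53 and 12.49 in DP against 11.42 and 11.54 in ProT. Its relative Prps1 had fallen a stage earlier, by 0.84 ± 0.09 in ProT against HSC (adjusted p = 0.00267).

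Of 20 HIF regulators and HIF targets outside glycolysis, 11 fell (55%) and 2 rose (10%) in DP against ProT, with a median change of -0.90. The other 7 were not called, among them Bnip3l (0.07) and Mxi1 (0.08). Adm and Arnt rose, by 0.26 and 0.41. Bnip3, a mitophagy receptor, fell by 3.48 ± 0.47 (adjusted p = 0.00274), Vegfa, the vascular growth factor, fell by 3.31 ± 0.22 (adjusted p = 0.000215) and Ero1a, an oxidase of the endoplasmic reticulum, fell by 2.63 ± 0.27 (adjusted p = 0.000933). Bnip3 had 10.53 and 11.98 in ProT, so its ProT arrays stood far apart. In ProT against HSC 5 genes of this list rose (25%) and 0 fell, against 7.85% and 6.9% of all genes. P4ha2, a collagen prolyl hydroxylase, rose by 2.64 ± 0.24 there (adjusted p = 0.00138), at least 6.23-fold, and Ddit4, an mTORC1 inhibitor, by 1.43 ± 0.10 (adjusted p = 0.000484). In DP against HSC 7 genes of the list fell (35%) and 5 rose (25%), with a median change of 0.05. Over all genes 18.8% fell and 16% rose there, and 33.2% and 24.1% of those kept by the filter on dim genes. Counts and medians of these lists are descriptions of lists chosen with earlier results known.

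Replicate arrays of ProT differed by at least 0.5 in a larger share of the members than of all genes. Between the ProT arrays 7 of the 33 members (21.2%) differed by at least 0.5, against 4.44% of all genes, and all 7 were higher on replicate 2. They were Slc16a3 (0.94), Pfkp (0.79), Slc2a1 (0.67), Pdk1 (0.65), Slc2a3 (0.63), Pfkl (0.56) and Hk2 (0.50). In the HIF list 8 of 20 genes (40%) differed by that much, with a median difference of 0.31 in favour of replicate 2. The summed signal of 9 handling and stress genes had a log2 of 12.51 on ProT replicate 1 and 13.32 on replicate 2, and its part in these differences was not tested. In HSC 4 members (12.1%) differed by at least 0.5, against 6.8% of all genes, and all 4 were lower on replicate 2, led by Slc2a3 (-1.27) and Pfkm (-0.63). This share rests on 4 genes, too few to tell it from that of all genes. Between the DP arrays 0 members differed by that much, against 0.241% of all genes, too small a share for 33 genes to show a difference.

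**Figure D4:**
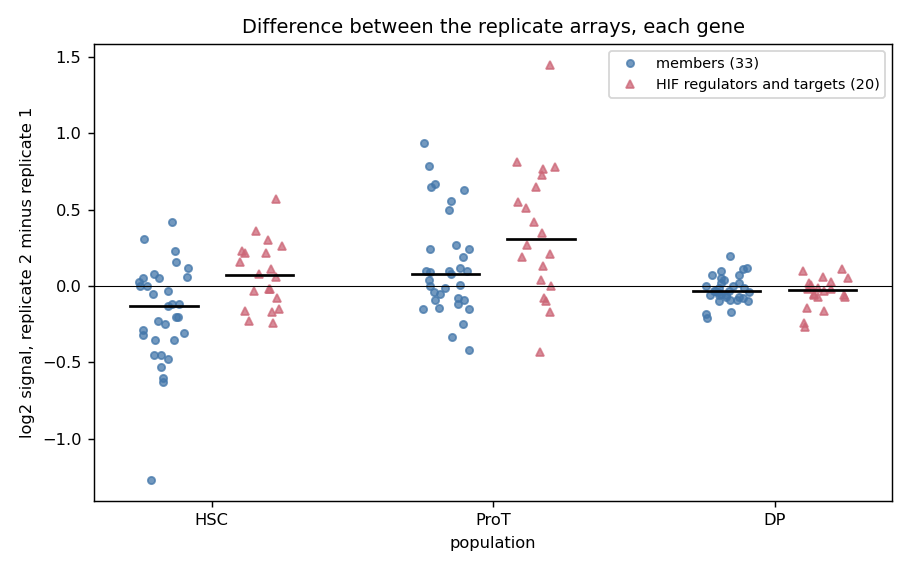
Difference between the replicate arrays (replicate 2 minus replicate 1, log2) within HSC, ProT and DP; circles are the 33 measured genes, triangles the 20 HIF regulators and targets, and black bars the medians. ProT circles reach 0.94 for Slc16a3, the HSC circles reach -1.27 for Slc2a3, the triangles of ProT have a median of 0.31, and every DP point lies within 0.5 of 0.

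Transcripts typical of other cells moved with the same comparisons and are given beside the falls in DP. Over all genes 18.1% fell and 14.5% rose in DP against ProT, and 31.7% and 21.6% of those kept by the filter on dim genes. The mast cell list fell in 7 of 8 genes in DP against ProT, with a log2 summed signal of 9.44 and 9.31 in DP and 14.19 and 14.22 in ProT, and the killer cell list in 6 of 8, with 11.73 and 11.67 in DP and 15.00 and 14.96 in ProT. The cell cycle list fell in 5 of 11, 0 of them 2-fold, with 14.87 and 14.84 in DP and 14.92 and 15.22 in ProT. The other 6 were not called, among them Mki67 and Top2a. Mki67 had 11.97 and 11.95 in DP against 10.42 and 11.76 in ProT, and Top2a differed by 0.00. Markers of thymic epithelium and stroma were higher in DP in 9 of 12 genes, with a log2 summed signal of 12.31 on both DP arrays against 11.62 and 11.54 in ProT, while the epithelial factor Foxn1 stayed dim at 6.38 and 6.36 in DP. Of 8 macrophage markers, 6 rose in DP, with the complement gene C1qb at 9.56 and 9.37 in DP against 6.6 and 6.07 in ProT. Adgre1 fell by 3.98 in DP against ProT, and the log2 summed signal of the 8 was lower, at 10.80 and 10.70 in DP against 11.31 and 11.41 in ProT. Of 7 measured B lineage genes, 5 rose in DP against ProT, 0 fell and 2 were not called. Cd79a rose by 1.93, to 7.01 and 6.77 in DP. Only Cd79b had DP signals above 7.17, at 10.87 and 10.92 against 10.54 and 10.25 in ProT. Whether such cells were present, and their part in the changes of the glycolytic genes, was not tested. In DP against HSC, where 18.8% of all genes fell, the granulocyte and monocyte list fell in 12 of 12 genes. Its log2 summed signal was 11.83 and 11.76 in DP and 15.75 and 15.98 in HSC. The cell cycle list fell in 8 of 11 genes there, 3 of them at least 2-fold. The part of either list in the falls there was not tested either.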

How the data were processed

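The values are log2 signals of total RNA on Affymetrix arrays, deposited as 1 table of 35556 probe sets and 6 arrays and made by the authors with RMA and Partek, per the submitters' processing notes; their versions and settings were not given in the sources used. RMA normalizes arrays against each other, so a change shared by most genes would not show, and 0 columns were left unused. Of the probe sets, 21789 were linked to 1 gene and covered 19938 genes; the 1621 with several genes and the 12146 with none were left out. The brightest probe set on average stood for a gene. All 6 arrays were fitted in limma 3.58.1 (R 4.3.3) with a mean per population and eBayes (residual degrees of freedom 3, prior 2.83), with Benjamini-Hochberg adjustment over all genes. No signal filter was applied.

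Named genes were all measured members, with array values for those changed at least 2-fold and a fixed set, and up to 3 called genes and 1 other of each neighbouring list. Some further values were named after they were seen: Gapdh, the second probe sets of Hk1 and Ldhb, and marker genes. The members and lists were chosen with earlier results of these data known. Arrays of the same replicate number shared little over all genes: deviations from the population means correlated at 0.06, -0.02 and -0.04. This cannot show whether the arrays were paired, and the main fit used no pairing. The limma fit was tested on simulated arrays with known changes in ProT against HSC, and the other steps were not. Alternatives were a replicate block, 3 other normalizations, a dim filter, other probe set choices, a prior with trend and robust settings, fits of a single pair of populations, stricter thresholds and leaving out each array. Promoters were searched with Python 3.11.15 and pandas 2.3.3 in RefSeq windows of GRCm38.p6, found for 32 of the 33 measured members.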

Additional observations from a re-analysis of the deposited data

How the results depend on the processing

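When each array was left out in turn, the medians of the members were -0.82 to -0.66 in DP against ProT and -0.93 to -0.61 in DP against HSC. Some members lost or gained a call in those fits, as given for each gene above. In ProT against HSC there were 2 to 6 members higher, 2 to 3 lower, and medians of 0.00 to 0.16; the count of 2 higher came without ProT replicate 2, without DP replicate 1 or without DP replicate 2, and that of 6 without HSC replicate 1. Only 2 members were higher in ProT than in HSC in a fit of those populations alone, beside 5.08% of all genes. At an adjusted p below 0.01 there were 2, beside 4.47% of all genes. Median centring made 4 members lower in ProT against HSC, beside 8.72% of all genes. It gave a median of -0.70 in DP against ProT, while it moved the median of all genes to 0.14. The cause of the added calls was not tested. A minimum change of 2-fold left 1 member lower in ProT against HSC and 1 higher in DP against ProT, beside 2.7% and 4.41% of all genes. The filter on dim genes gave a median of -1.01 in DP against HSC, over fewer genes. With the replicate block 4 members rose and 2 fell in ProT against HSC, beside 7.69% and 6.58% of all genes. In DP against ProT 4 rose and 19 fell, beside 13.7% and 17.8%. In DP against HSC 4 rose and 18 fell, beside 15.3% and 18.5%, and Pfkfb3 lost its call there (adjusted p = 0.0626). Hk1 alone turned in direction with a call: in DP against HSC it was -0.32 as the mean of its probe sets and -0.73 with its most variable one, which is also the one with the most accessions, -0.73 (an alternative added after seeing the data), against 0.09 by the brightest. Of 1674 member values under the alternatives, 48 changed sign, 45 of them with no call in either fit. Signals below 7.17 were not shown to lie above background, which limits the folds of Hk2, Hk3, Aldoc, Ldhb, Pdk2, P4ha2, Slc16a7 and Ldhd.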
